A study of Mus musculus with 4 samples.

Results

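Among 22072 gene symbols measured by RNA sequencing in mouse molar mesenchyme at embryonic day 13.5, 39 were Hox genes, taken as every symbol made of Hoxa, Hoxb, Hoxc or Hoxd and a number. They were listed at or near 0 in all 4 libraries. A total of 32 members were listed at 0 FPKM (fragments normalised to transcript length and library depth) throughout, and none reached 1 FPKM in any library, a level met by 47.4% of all listed genes in 3 libraries and by 47.3% in the control lower library. Hoxc8 was the only member with at least 3 approximate reads in every library, and its highest level was 0.359 FPKM.

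The tissue was cut from frozen heads by laser capture, and the upper (maxillary) and lower (mandibular) molars were kept apart. Mutant embryos were Bmp4f/f;Wnt1Cre, so both floxed Bmp4 alleles could be recombined where Wnt1Cre was active. Wnt1 drives this Cre in the premigratory neural crest and dorsal neural tube, and cells of other origin in the captured tissue are not targeted. Control embryos were Bmp4f/+, with 1 floxed allele, and their label names no Wnt1Cre, so an effect of the Cre transgene cannot be told apart from loss of Bmp4. All embryos were of mixed background. Each genotype and molar gave 1 library, and RNA of 3 mutant and control pairs was pooled, so no spread between embryos was measured.

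Hox genes encode homeodomain transcription factors that lie in 4 clusters, A to D, and are numbered 1 to 13 by paralogue group along each cluster. Genes of low number are active furthest toward the head and genes of high number toward the tail, an order called collinearity. The neural crest of the first pharyngeal arch, which supplies the mesenchyme of jaws and teeth, forms without Hox expression, whereas crest of the second arch and behind expresses Hox genes. Hoxa2 is the selector of second arch identity in mice: without it, first arch skeletal elements form in its place. Polycomb complexes keep Hox clusters closed by histone H3 lysine 27 methylation, and trithorax proteins oppose them.

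Depth was about 5545319, 4839148, 4999322 and 4815610 reads on transcripts in the mutant upper, control upper, mutant lower and control lower library. A transcript of 2 kb with 3 reads would then be listed at between 0.101 and 0.115 FPKM. Bmp4, the targeted ligand (chr14:47003196-47010274, mm9), stood at 4.75 FPKM in mutant and 24.8 FPKM in control upper molars, and at 4.90 FPKM in mutant and 27.2 FPKM in control lower molars. It fell by 2.21 ± 0.11 on the log2(FPKM + 1) scale (SE, adjusted p = 0.0008, limma with genotype and molar as terms). Fitted without the molar term and the control upper library the adjusted p was 0.081, and without the control lower library it was 0.085. Of 18 first arch mesenchyme markers, 15 averaged at least 1 FPKM, among them Msx1, Pax9, Barx1 and Lhx8, while Hand2 was near 0. Exact zeros were found in 3 of 77 ribosomal protein symbols, Rpl10l, Rpl39l and Rpl3l, which are copies with tissue-restricted expression. A listing at or near 0 does not by itself show absence, because the ribosomal protein gene Rpl26 was listed at 0.000132 FPKM in the control lower library and at 5.54 FPKM in the control upper library.

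Promoter sequence is given for 3 genes that span the contrast, namely Hoxa2 (second arch selector, listed at 0), Hoxd13 (the gene at the posterior end of cluster D, at most about 1 read) and Msx1 (an abundant homeobox gene of the same tissue). Each is the 250 bases before the RefSeq gene start on GRCm38.p6, written along the gene's own strand, and capitals mark every CG dinucleotide.
Hoxa2 (chr6:52164832-52165081, minus strand): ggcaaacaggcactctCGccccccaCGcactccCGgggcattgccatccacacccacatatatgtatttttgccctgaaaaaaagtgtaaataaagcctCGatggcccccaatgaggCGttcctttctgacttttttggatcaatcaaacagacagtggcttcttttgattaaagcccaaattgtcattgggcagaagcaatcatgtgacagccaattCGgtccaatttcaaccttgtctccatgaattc
Hoxd13 (chr2:74667975-74668224, plus strand): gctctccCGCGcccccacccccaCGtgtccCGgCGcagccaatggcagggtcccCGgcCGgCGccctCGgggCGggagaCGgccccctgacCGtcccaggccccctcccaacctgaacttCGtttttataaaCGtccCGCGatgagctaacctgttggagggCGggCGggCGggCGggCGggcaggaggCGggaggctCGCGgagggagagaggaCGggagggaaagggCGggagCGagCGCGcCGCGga
Msx1 (chr5:37824586-37824835, minus strand): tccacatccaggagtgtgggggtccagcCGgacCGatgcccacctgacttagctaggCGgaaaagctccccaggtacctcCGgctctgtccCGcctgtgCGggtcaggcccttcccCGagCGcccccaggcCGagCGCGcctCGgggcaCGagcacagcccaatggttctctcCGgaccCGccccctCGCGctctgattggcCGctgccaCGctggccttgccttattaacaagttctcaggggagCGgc
The Hoxa2 window held 6 CG and was 46.4% G or C, the Hoxd13 window held 31 CG and was 74.4% G or C, and the Msx1 window held 20 CG and was 68.0% G or C. CG reads the same on both strands, and 91.9% of all RefSeq windows held at least 1. The windows of Hoxa2 and Hoxd13 thus lay on either side of that of Msx1 in CG number. Only 22 of the 39 members (56.4%) had a window, too few for a comparison of CG content over the set, which is void.

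Across the 39 members, 32 (82.1%) were listed at 0 in all 4 libraries, against 23.1% of all listed genes. All 41 Hox transcripts had a successful estimate by the files' status column, so none of the zeros was a failed one by that mark. A member's values were set against the FPKM that 3 reads would give. This level ran from 0.0596 to 0.329 over members and libraries, with a median of 0.110. It is a chosen limit, and 5 members listed above 0 never reached it. Expression below it could be missed at this depth. Detection, taken as at least 3 approximate reads, was met by 2 members in the mutant upper library and by 1 in each of the control upper, mutant lower and control lower libraries. Of all listed genes, 63.1, 63.1, 63.4 and 63% passed in the same 4 libraries. Reads are approximate, being the deposited coverage times length over an estimated read length, and all intervals on them cover counting error only.

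Paralogue groups 1 to 3 pattern the hindbrain and the more anterior arches, and 7 of their 8 members were listed at 0 throughout. Hoxa2 (chr6:52112510-52114830), whose transcript of 1681 bases would be listed at 0.1201, 0.1362, 0.1267 and 0.1369 FPKM with 3 reads in the mutant upper, control upper, mutant lower and control lower library, was at 0 in each. Also at 0 in every library were Hoxb1, which acts in a hindbrain segment, Hoxb2, the third arch regulator Hoxa3 and its paralogues Hoxb3 and Hoxd3. Hoxd1 (chr2:74601037-74603199), known for its role in pain-sensing neurons, was the exception with 0.0438 FPKM in the mutant lower library, or 1.15 approximate reads, and 0 in the other 3 libraries.

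Groups 4 to 8 pattern the neck and chest level of the axis, and 12 of their 15 members were at 0 throughout. Hoxc8 (chr15:102820970-102824685), which specifies thoracic vertebrae and brachial motor neurons, had 0.359 FPKM in mutant and 0.176 FPKM in control upper molars, and 0.323 FPKM in mutant and 0.283 FPKM in control lower molars. Its approximate reads were 12.6 (95% Poisson interval 6.65 to 21.8) in mutant and 5.45 (1.88 to 12.3) in control upper molars, and 10.8 (5.34 to 19.4) in mutant and 8.73 (3.94 to 16.7) in control lower molars. The mutant value was the higher in each molar, and the 4 intervals overlapped. Hoxc8 ranked 12699 of 22072 by mean level, at 0.285 FPKM. Its cluster neighbours on either side, Hoxc9 and Hoxc6, were listed at 0 in every library. No other transcript in the deposited tables overlaps the Hoxc8 locus, and no other gene's exons overlap its exons in GENCODE M21, where its locus is overlapped by Hoxc5, a member listed at 0.

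Hoxb4 (chr11:96179581-96182952), a regulator of cervical vertebrae and blood stem cells, had 0.0492 FPKM in mutant and 0.00426 FPKM in control upper molars, and 0.000246 FPKM in mutant and 0 FPKM in control lower molars. Its highest value was 1.87 approximate reads, and the other values above 0 were parts of a read. Hoxd8 (chr2:74543546-74545364) had 0.0485 FPKM in mutant and 0.0563 FPKM in control upper molars, and 0 in both lower molars, with at most 1.05 approximate reads. The other 12 members of these groups, Hoxa4 to Hoxa7, Hoxb5 to Hoxb8, Hoxc4 to Hoxc6 and Hoxd4, were at 0 in all libraries.

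Groups 9 to 13 pattern the lumbar to tail levels, limbs and genitalia, and 13 of their 16 members were at 0 throughout. Hoxb9 (chr11:96132644-96137907), a regulator of ribs, had 0.0880 FPKM in mutant and 0.0190 FPKM in control upper molars, and 0.00492 FPKM in mutant and 0.00160 FPKM in control lower molars. Only the mutant upper value, at 3.53 approximate reads (95% Poisson interval 0.859 to 9.56), passed 3 reads, while the other 3 values were under 1 read. Hoxd13 (chr2:74506367-74509655), the digit regulator, was at 0 FPKM in both mutant libraries and at 0.0433 FPKM in the upper and 0.0437 FPKM in the lower control. Hoxd9 (chr2:74535820-74538265), which acts in the forelimb and lumbar region, showed the opposite split, with 0.0464 FPKM in the upper and 0.0489 FPKM in the lower mutant and 0 in both controls. Neither gene exceeded 1.45 approximate reads in a library. The other 13, Hoxa9, Hoxa10, Hoxa11, Hoxa13, Hoxb13, Hoxc9 to Hoxc13, Hoxd10, Hoxd11 and Hoxd12, were at 0 in all libraries.

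**Figure D1:**
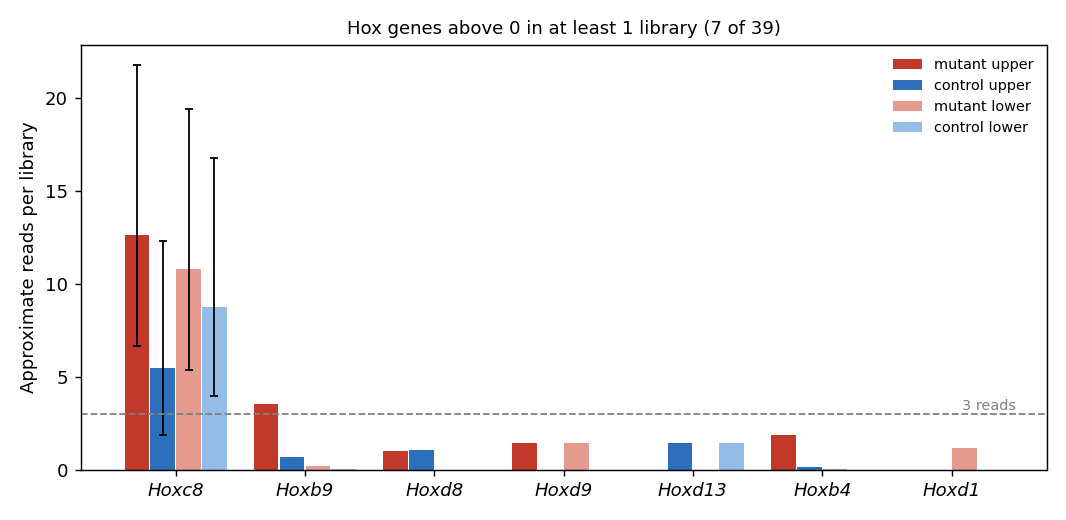
Approximate reads per library (bars from 0) for the 7 Hox genes listed above 0 in some library, with a dashed line at 3 reads, and 95% Poisson bars on Hoxc8. Hoxc8 lies above the dashed line in all 4 libraries, Hoxb9 in the mutant upper library with 3.53 reads, and the other 5 genes in none.

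By cluster, all 11 genes of HoxA on chromosome 6 were at 0 in all libraries, as were 8 of 10 in HoxB on chromosome 11, 8 of 9 in HoxC on chromosome 15 and 5 of 9 in HoxD on chromosome 2. HoxD, with the most members above 0, still held only 2.47 and 2.46 approximate reads in mutant and control upper molars, and 2.59 and 1.42 in mutant and control lower molars. HoxB held 5.41 and 0.814 approximate reads in mutant and control upper molars, and 0.196 and 0.0565 in mutant and control lower molars. Members above 0 lay at both ends of HoxD, whose outermost genes Hoxd1 and Hoxd13 were among them.

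Other transcripts inside the clusters were listed at 0 as well. Together the clusters span 492 kb on mm9, and the 10 other transcripts listed inside them were at 0 in all 4 libraries. Of these, 2700086A05Rik, Hoxa11as, Gm53 and 1700109F18Rik are longer transcripts, and Mir196b, Mir196a-1, Mir10a, Mir196a-2, Mir615 and Mir10b are microRNA genes, which are shorter than a usual library fragment. Loci of 8 members overlap other listed transcripts (Hoxa3, Hoxa4, Hoxa5, Hoxa6, Hoxa11, Hoxc5, Hoxd3 and Hoxd4), and the strand setting was not given, but all 8 were at 0.

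Outside the clusters, expressed genes lay at varying distances. Of the 4 listed genes on either side of each cluster, 32 in all, 22 averaged at least 1 FPKM, against 47.6% of all listed genes. The shares are not fully alike, since genes under 0.3 kb were left out of the flanks but not of the 47.6%. Some flanking entries also share a locus, namely Gm10052 with Hnrnpa1 and Gm6793 with Hnrnpa3. Mtx2, a mitochondrial import gene 60.7 kb beyond Hoxd1, had 12.9 and 9.37 FPKM in mutant and control upper molars, and 10.4 and 11.4 FPKM in mutant and control lower molars. Lnp, an endoplasmic reticulum gene 89.4 kb beyond the other end of HoxD, had 3.47 and 3.63 FPKM in mutant and control upper molars, and 3.23 and 3.25 FPKM in mutant and control lower molars. The homeobox genes closest to the clusters were not among those transcribed, since Evx2, 8.89 kb from HoxD, and Evx1, 52.6 kb from HoxA, were both at 0 in all libraries. Smug1, a DNA repair gene 116 kb from HoxC, had 2.45 and 2.03 FPKM in mutant and control upper molars, and 2.20 and 2.05 FPKM in mutant and control lower molars. Around HoxB, the nearest listed gene on each side, Ttll6 and Gm11529, was at 0, while the ATP synthase gene Atp5g1, 119 kb away, averaged 49.3 FPKM.

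**Figure D2:**
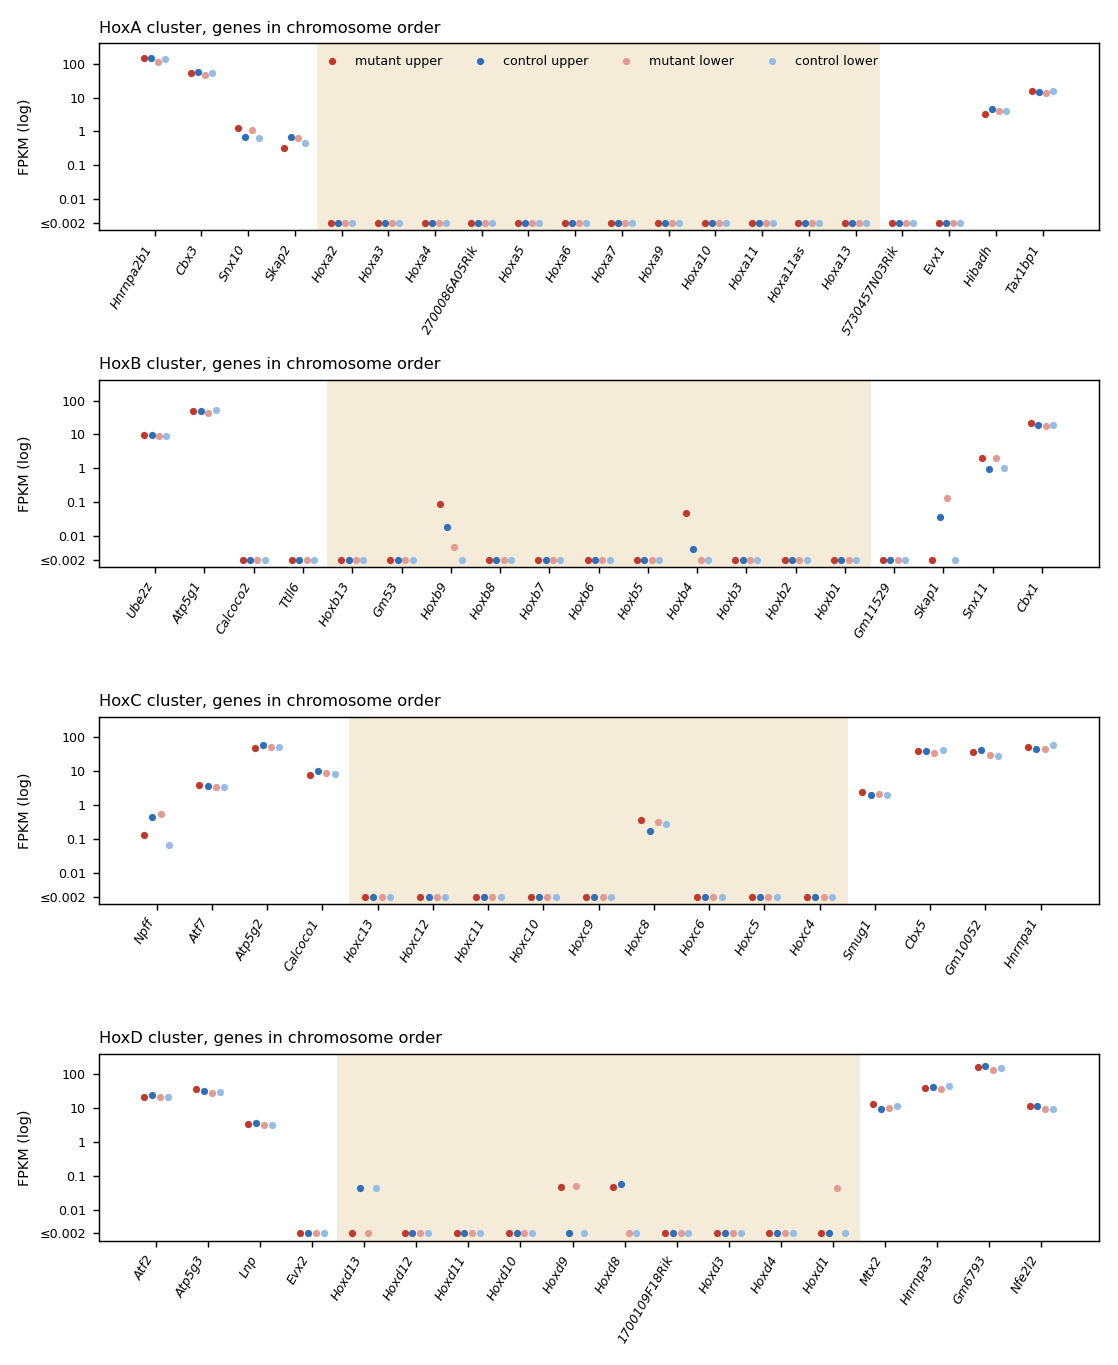
FPKM in each of the 4 libraries (log axis, values of at most 0.002 FPKM on the bottom line) of listed genes in chromosome order for the 4 Hox clusters, shaded, and 4 flanking genes on either side, with short RNAs and 1 HoxA member left out. Values drop to the bottom line inside each shaded cluster apart from the few low members such as Hoxc8, and 22 of the 32 flanking genes average at least 1 FPKM.

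Other homeobox genes were more often expressed than Hox genes in the same libraries, though less often than listed genes as a whole. Whereas no Hox gene averaged 1 FPKM, 53 of 177 other homeobox genes (29.9%) did, and whereas 1 of 39 Hox genes was detected in all 4 libraries, 72 of 177 (40.7%) were. Among all listed genes these shares were 47.6% and 58.9%. The other homeobox genes had a median level of 0.0926 FPKM, against 0 for the Hox genes and 0.770 for all listed genes. Of the other homeobox genes, 56 (31.6%) were at 0 in all libraries, against 23.1% of all listed genes. Hoxc8, the highest Hox gene, would stand below 68 of the other homeobox genes and above 109.

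The most abundant were regulators of craniofacial and dental mesenchyme. Prrx1, a paired-class gene of head and limb mesenchyme, had 135 and 139 FPKM in mutant and control upper molars, and 132 and 144 FPKM in mutant and control lower molars, and its mean was 483 times that of Hoxc8. Msx1, which is required for molars to pass the bud stage, had 135 and 150 FPKM in mutant and control upper molars, and 98.4 and 126 FPKM in mutant and control lower molars. Six2 averaged 125 FPKM, the molar field gene Barx1 88.0 FPKM, and the LIM genes Lhx6 and Lhx8, which act in oral mesenchyme, 85.4 and 80.9 FPKM. Adnp, Dlx5, Lass2 and Dlx1 were also among the 12 highest, at means between 22.5 and 26.7 FPKM. Even Dlx1, the lowest of these, averaged 79.0 times the level of Hoxc8.

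By class, the highest genes included Six2 (SINE), Prrx1 (paired), Msx1 (NK-like), Lhx6 (LIM), Adnp (zinc finger), Lass2 (ceramide synthase), Cux1 at 18.1 FPKM (CUT), Pou3f3 at 11 FPKM (POU), Hmbox1 at 5.96 FPKM (HNF), Meox1 at 1.81 FPKM (Hox-like outside the clusters) and Prox2 at 0.375 FPKM (PROS). The 13 Hox-like genes outside the clusters, such as the Cdx, Gsx and Evx genes, were the nearest to the Hox genes in kind. Of these, 9 were at 0 in all libraries and 3 were detected in all, which were Meox1, Meox2 at 0.830 FPKM and Gbx2 at 0.387 FPKM.

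**Figure D3:**
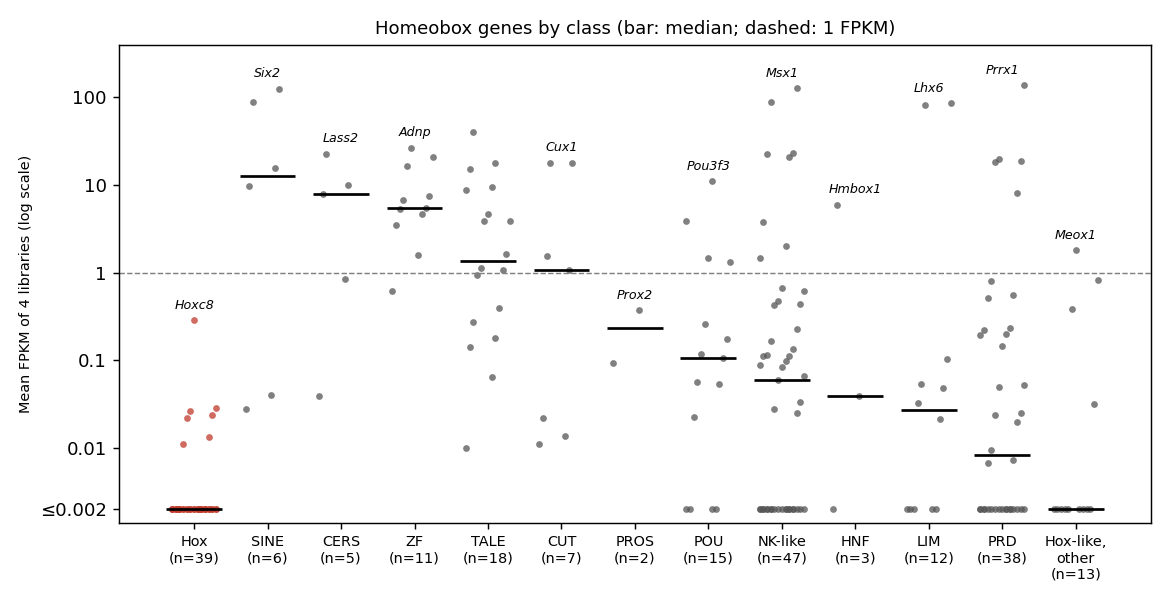
Mean FPKM over the 4 libraries (log axis, values of at most 0.002 FPKM on the bottom line) for each gene, by homeobox class, with the median as a bar, the top gene named in all classes but TALE and a dashed line at 1 FPKM. All 39 Hox genes lie below the dashed line, while 53 of the 177 other homeobox genes lie on or above it.

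The low Hox values were also compared between genotypes. Hox members above 0 numbered 5 in mutant and 5 in control upper molars, and 5 in mutant and 3 in control lower molars. Summed over all members, Hox transcripts reached 0.591 FPKM in mutant and 0.299 FPKM in control upper molars, and 0.421 FPKM in mutant and 0.328 FPKM in control lower molars. These sums rested on 20.5 approximate reads (95% Poisson interval 12.6 to 31.5) in mutant and 8.73 (3.93 to 16.7) in control upper molars, and on 13.6 (7.34 to 22.9) in mutant and 10.2 (4.94 to 18.7) in control lower molars. The sum was higher in the mutant library of each molar, and within a molar there is no test, with 1 library per genotype. In the upper molar the mutant to control ratio of summed FPKM was 1.98, with an exact binomial interval of 0.903 to 5.10 from reads rounded to whole numbers and corrected for depth, and in the lower molar it was 1.28 with an interval of 0.535 to 3.26. Both intervals include 1, and their upper bounds leave room for higher Hox levels in the mutant. They cover counting error only and not spread between embryos, so they do not test a genotype difference.

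Hoxc8 gave 61.6% of the Hox reads in mutant and 62.5% in control upper molars, and 79.4% in mutant and 85.6% in control lower molars. Its own mutant to control FPKM ratio was 2.04 for upper and 1.14 for lower molars. Its read ratios made in the same way were 2.29 (interval 0.767 to 8.21) and 1.13 (0.426 to 3.09). Without Hoxc8 the sums were 0.232 FPKM in mutant and 0.123 FPKM in control upper molars, and 0.0978 FPKM in mutant and 0.0453 FPKM in control lower molars. These remainders stood for 7.88 and 3.27 approximate reads in mutant and control upper molars, and for 2.79 and 1.47 in mutant and control lower molars.

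No Hox gene entered the limma fit, which tested the 10502 genes averaging 1 FPKM or more and called 84 of them (0.8%) for genotype at an adjusted p of 0.05. With genes down to a mean of 0.1 FPKM tested, Hoxc8 was the only member to enter and its log2(FPKM + 1) difference was 0.13 ± 0.13 (SE, adjusted p = 0.76), where 0.142% of genes were called. With no filter, 0 of 39 members and 0% of all genes were called for genotype, and 2 members against 7.2% of all genes had an unadjusted p under 0.05. These were Hoxd13, with a log2 difference of -0.06 (adjusted p = 0.20), and Hoxd9, with 0.07 (adjusted p = 0.22). Both differences rest on under 2 approximate reads in a library. The fit leaves 1 residual degree of freedom per gene, to which limma adds prior degrees of freedom estimated from all genes tested. These numbered 5.77 in the main fit, 4.67 at 0.1 FPKM and 0.716 with no filter. Its p-values thus rest on a gene's disagreement between the molars and on that of other genes, not on spread between embryos.

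**Figure D4:**
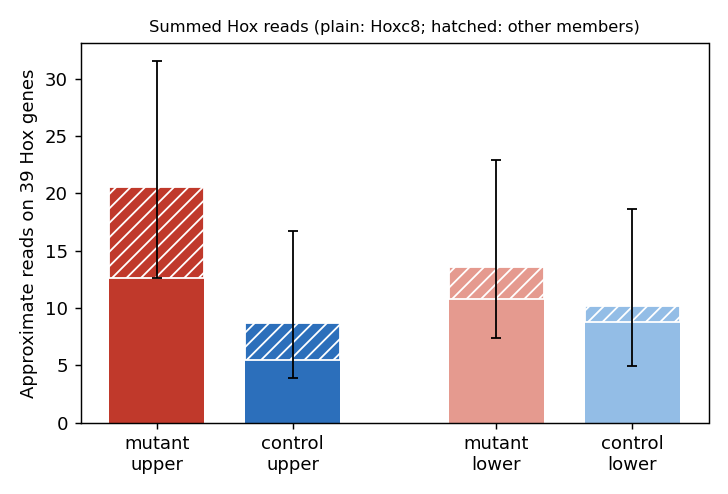
Summed approximate reads on the 39 Hox genes in each library, with the part of Hoxc8 plain and that of the other members hatched, and 95% Poisson bars, with the mutant left of the control for each molar. The mutant sums of 20.5 (upper) and 13.6 reads (lower) stand above the control sums of 8.73 (upper) and 10.2 reads (lower), with bars that overlap.

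Hox levels in lower and upper molars were compared in the same way. The read intervals given here all include 1 and again cover counting error only. The lower to upper ratio of summed Hox FPKM was 0.712 in the mutants and 1.10 in the controls. Depth-corrected ratios of rounded reads were 0.703 (exact binomial interval 0.331 to 1.45) in the mutants and 1.12 (0.408 to 3.10) in the controls. Hoxc8 had an FPKM ratio of 0.900 in the mutants and 1.61 in the controls. Its read ratios were 0.892 (interval 0.362 to 2.16) in the mutants and 1.81 (0.544 to 6.87) in the controls. limma called 76 genes (0.724%) for molar and no Hox gene was tested there. With no filter 0 members were called, and 1 member, Hoxd8, against 6.35% of all genes had an unadjusted p under 0.05, at a lower minus upper log2 difference of -0.07 (adjusted p = 0.54). Among other homeobox genes, Dlx5, which patterns the lower jaw, was higher in the lower molar, with 28.9 and 39.2 FPKM in mutant and control lower molars against 10.1 and 14.6 FPKM in mutant and control upper molars (lower minus upper log2 difference 1.401 ± 0.105 SE, adjusted p = 0.0035, limma). This call was lost on leaving out any 1 of the 4 libraries, fitted without the genotype term, with adjusted p between 0.076 and 0.56, and calls over all genes then numbered 21 without the mutant upper, 14 without the control upper, 0 without the mutant lower and 3 without the control lower library.

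Of the 53 other homeobox genes tested for genotype, limma called 4 lower, 3 of which are described, and 0 higher in the mutant, against 0.457% and 0.343% of all genes tested. Msx2, a BMP-responsive partner of Msx1, had 0.783 and 3.77 FPKM in mutant and control upper molars, and 0.399 and 3.10 FPKM in mutant and control lower molars (log2 difference -1.49 ± 0.14 SE, adjusted p = 0.015). Dlx3, a gene of tooth and hair formation, had 0.452 and 3.00 FPKM in mutant and control upper molars, and 0.265 and 2.11 FPKM in mutant and control lower molars (-1.38 ± 0.16, adjusted p = 0.024). The values of both genes lay below each control in each mutant library.

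Meox1, known from somites, had 0.746 and 2.72 FPKM in mutant and control upper molars, and 0.899 and 2.86 FPKM in mutant and control lower molars (log2 difference -1.06 ± 0.14 SE, adjusted p = 0.034, limma). For Meox1 too the mutant and control values did not overlap. Msx2, Dlx3 and Meox1 were named because limma called them on these same values, so this separation adds no support of its own. Leaving out any 1 of the 4 libraries, fitted without the molar term, ended the calls of Msx2, Dlx3 and Meox1, with adjusted p between 0.073 and 0.97.

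Partners of Hox proteins were measured as well. Of 9 listed cofactors of the Pbx, Meis and Pknox families, 7 averaged at least 1 FPKM, and limma called 0 of these 7 for genotype, against 0.8% of all genes tested, with 1 at an unadjusted p under 0.05, against 13.2%. Pbx2 had 17.9 and 18.1 FPKM in mutant and control upper molars, and 17.9 and 17.5 FPKM in mutant and control lower molars. Pbx3 averaged 8.69 FPKM and Meis3 4.68 FPKM. The median log2 difference of the 7 was -0.07, against -0.02 for all genes tested.

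Upstream regulators of Hox genes were partly present, with 6 of 14 at a mean of at least 1 FPKM. Cdx2 and Cdx4, which activate posterior Hox genes in the trunk, were at 0 in all libraries. Cdx1 had 0.128 FPKM, or 3.32 approximate reads, in the mutant upper library and was at 0 in the others. Retinoic acid, a known inducer of Hox genes, is made by Aldh1a2 and removed by Cyp26b1, and both enzymes were abundant. Aldh1a2 had 33.6 and 43.4 FPKM in mutant and control upper molars, and 6.82 and 21.4 FPKM in mutant and control lower molars, the mutant value being the lower in each molar. Cyp26b1 had 33.7 and 20.9 FPKM in mutant and control upper molars, and 30.1 and 27.5 FPKM in mutant and control lower molars. The receptors Rara and Rarg averaged 19.0 and 11.7 FPKM. limma called 0 of the 6 for genotype, against 0.8% of all genes tested, with 3 at an unadjusted p under 0.05, against 13.2%, and a median log2 difference of -0.11.

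Both chromatin systems known to set Hox activity were transcribed. Of 11 PRC2 genes, 10 averaged at least 1 FPKM, led by Rbbp7 at 38.9 FPKM, Ezh2, a methyltransferase, at 20.2 FPKM, Rbbp4 at 15.05 FPKM and Mtf2 at 9.30 FPKM. Ezh2 had 19.1 and 21.8 FPKM in mutant and control upper molars, and 17.4 and 22.5 FPKM in mutant and control lower molars (log2 difference -0.27 ± 0.11 SE, adjusted p = 0.37, limma). Its relative Ezh1 had 1.32 and 1.91 FPKM in mutant and control upper molars, and 0.852 and 1.95 FPKM in mutant and control lower molars (-0.50 ± 0.16, adjusted p = 0.28, limma). Ezh1 and Ezh2 were the PRC2 genes with an unadjusted p under 0.05. Of 16 PRC1 genes, 14 averaged at least 1 FPKM, with Pcgf2 at 21.6 FPKM, Phc2 at 12.4 FPKM, Phc1 at 11.8 FPKM and the ubiquitin ligase Rnf2 at 11.3 FPKM. All 12 trithorax and H3K27 demethylase genes did so, with Dpy30 at 25.3 FPKM, Mll5 at 21.0 FPKM, Ash2l at 12.97 FPKM and Men1 at 12.2 FPKM. limma called 0 of these 36 tested genes for genotype, and 2 PRC2, 0 PRC1 and 2 trithorax genes had an unadjusted p under 0.05, against 0.8% called and 13.2% unadjusted of all genes tested. The median log2 differences were -0.06 for PRC2, -0.05 for PRC1 and -0.06 for trithorax genes.

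Genes listed as markers of cells from outside the first arch crest were measured in the same libraries. Whether their transcripts came from such cells was not tested. In bulk samples fewer cells of a type and less RNA per cell cannot be told apart. Of 12 markers of second arch, neck and trunk mesenchyme, 2 averaged at least 1 FPKM (Tbx18 and Meox1), Lbx1 and Nkx3-2 were at 0 in all libraries, and the summed level was 4.44 and 4.77 FPKM in mutant and control upper molars, and 8.04 and 6.02 FPKM in mutant and control lower molars. Of 12 neuronal markers, 2 reached that level, Prph was at 0 in all libraries, and the sum was 22.8 and 14.7 FPKM in mutant and control upper molars, and 13.6 and 10.9 FPKM in mutant and control lower molars. The neuronal sum was highest in the mutant upper library, which also had the highest Hox sum. The sum of epithelial markers was highest there too, at 25.6 FPKM. Of the control libraries, the upper had the lower Hox sum and the higher neuronal sum. In the mutant upper library the neuronal sum came mostly from Gap43 at 13.6 FPKM and Nefl at 6.89 FPKM. Tubb3, Stmn2 and Elavl3 were at their lowest in that library. The part of neuronal or epithelial cells in the Hox sum was not tested.

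Blood and vessel markers were present throughout. Erythroid markers, 7 of 11 at a mean of at least 1 FPKM, summed to 934 and 1035 FPKM in mutant and control upper molars, and 1091 and 920 FPKM in mutant and control lower molars. Endothelial markers, 11 of 12 at a mean of at least 1 FPKM, summed to 46.3 and 61.1 FPKM in mutant and control upper molars, and 51.9 and 57.1 FPKM in mutant and control lower molars. Macrophage markers, 4 of 12 at that level, summed to between 10.4 and 13.4 FPKM, epithelial markers, 5 of 12, to between 22.3 and 25.6 FPKM, muscle markers, 1 of 12, to between 3.40 and 4.27 FPKM and Schwann cell markers, 0 of 8, to between 1.39 and 1.81 FPKM. The part of these cells in the Hox values was not tested.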

How the data were processed

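Per the submitters' processing notes, the alignment used mm9, with TopHat 1.4.1 and Bowtie 0.12.7. The authors deposited FPKM for 28107 transcripts in each of 4 libraries, in tables with the layout of Cufflinks output, whose version, strand setting and treatment of multiply aligned reads are not given in the sources used here. The deposited coverage signal per transcript was multiplied by length and divided by an estimated read length of 44.2 bases to give approximate reads. cDNA was amplified from captured RNA, per the labels' protocols, so reads are not independent molecules.

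FPKM was summed per symbol. limma 3.58.1 in R 4.3.3 was fitted on log2(FPKM + 1), pseudocount 1, for genes averaging 1 FPKM or more, with genotype and molar as terms, an intensity trend and Benjamini-Hochberg adjustment at 0.05, two-sided, after a check on simulated data. Coordinates of loci are mm9, counted from 1. RefSeq promoters are on GRCm38.p6. GENCODE M21 was used for overlaps by name.

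Members and lists were chosen with earlier results of these data known. Named were Bmp4, every Hox member, the 12 highest other homeobox genes, the highest of each class, those called, and called or up to 4 highest genes of each list. Ezh1 was named in addition. Transcripts inside the clusters were taken by position. Some genes that this rule covers are not reported here. Alternatives changed the filter, pseudocount, scaling, trend, molar term, transcript length, detection limit and library.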

Additional observations from a re-analysis of the deposited data

How the results depend on the processing

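Calls for genotype over all genes were 84, and 0 with no filter (1590 at an unadjusted p under 0.05), 20 at a mean of at least 0.1 FPKM, 14 after rescaling by median ratios, 38 without the intensity trend, 7 without the molar term, 133 without transcripts under 0.3 kb, and between 5 and 18 leaving out 1 library in turn. Calls for molar over all genes were 76, and 0 with no filter (1402 unadjusted), 28 at a mean of at least 0.1 FPKM, 46 after rescaling, 12 without the genotype term, 139 without transcripts under 0.3 kb, and between 0 (407 unadjusted) and 21 leaving out 1 library. Fits with 1 library left out also lack the term for the other factor. Hox members entered the fit only with no filter (39 tested) and at 0.1 FPKM (1 tested), where 0 were called for genotype and for molar. Members at 0 in all libraries numbered 32, and 32 or 33 leaving out 1 library, an alternative chosen after seeing the data. Members detected in the mutant upper library were 5 at 1 read, 2 at 3 reads, 1 at 10 reads, 1 at 0.1 FPKM and 0 at 1 FPKM. In the control upper library they were 3 at 1 read, 1 at 3 reads, 0 at 10 reads and 0 at 1 FPKM. The mutant lower library had 3 at 1 read, 1 at 3 reads and 0 at 1 FPKM, and the control lower library had 2, 1 and 0 at these limits and 0 at 10 reads. Leaving out Hoxc8 moved the sums to 0.232 and 0.123 FPKM in mutant and control upper molars, and 0.0978 and 0.0453 FPKM in mutant and control lower molars. Direction held in all 12 alternatives for Bmp4, Msx2, Dlx3, Meox1 and, for molar, Dlx5, and the call was lost in 3, 7, 7, 8 and 6 of them in that order, where Bmp4 lost it with no filter (adjusted p = 0.21, limma) and without either control library. With all 4 libraries and the 1 FPKM filter, Msx2, Dlx3 and Meox1 lost the call after rescaling (adjusted p = 0.057, 0.061 and 0.074, limma). They also lost it without the molar term (adjusted p = 0.15, 0.18 and 0.18, limma). Why calls were lost was not tested. Detection was set at the 3-read levels given for the members, a chosen limit. A listing at 0 does not by itself bound expression, given the near-0 value of Rpl26. No paired analysis of embryos was possible because each genotype and molar gave 1 pooled library. Only the molar term of the fit sets mutant against control within a molar.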
